A study of Mus musculus with 6 samples.

Results

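The miRNAs described here carry registry numbers from 1000 up to, but not including, 5000. They were chosen by name, with earlier results of these data known. Of the 1081 entries in the table, 154 rows fell in this range, and 15 rows were left out by name (those of miR-1193, miR-1224, miR-1247, miR-1981, miR-3072, miR-3076 and miR-3102; miR-1197 is also named in the rule). Rows with identical values were counted once, which set aside 23 of the remaining 139 rows and left 116 members. Of these, 44 reached a mean of 5 normalized reads and were tested, and 72 lay below that level. Most of the repeated rows were entries with a few reads in the same library. The 1 abundant case is miR-1843a-5p and miR-1843b-5p, which share 1 set of values.

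Small RNA libraries came from the inner medulla of the kidney of 1-month-old mice, 3 controls and 3 DicerAQP2Cre+ mice. Controls carry no further description in the labels. In DicerAQP2Cre+ mice Dicer1 was deleted in cells that express aquaporin-2, a water channel found in the principal cells of the collecting duct. Vessels, interstitium, loops of Henle and other cells of the inner medulla are not targeted. Small RNA counts hold no value for Dicer1 mRNA, which leaves the deletion itself unmeasured here. Whole tissue was sequenced, so fewer cells of a type and less RNA per cell cannot be told apart. The 3 columns read as DicerAQP2Cre+ carry an abbreviated name that is taken to mean conditional knockout, and every direction below rests on that reading.

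A canonical miRNA is made in steps. The nuclear enzyme Drosha, with its partner Dgcr8, cuts a hairpin out of a primary transcript, Dicer cuts off the loop in the cytoplasm, and an Argonaute protein keeps 1 strand, whose bases 2 to 8 (the seed) choose the target mRNAs. A registry number records when a sequence was catalogued and not what it does. The entries catalogued in this range came largely from deep sequencing, and they mix canonical hairpins with small RNAs from other sources. Mirtrons are short introns whose ends are set by the spliceosome in place of Drosha, and which still need Dicer. Fragments of snoRNAs and scaRNAs, the guides of RNA modification, can enter the same pathway without Drosha. Fragments of tRNA or rRNA can be catalogued as miRNAs although other nucleases cut them.

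The mature sequences are from RefSeq (table of GRCm38.p6), where 123 of the 139 rows matched by name, 43 of the 44 tested members among them. Seeds are in capitals, and all sequences read 5′ to 3′. The first set is the entry that passed the test and the other tested tRNA- and rRNA-like entries.

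miR-3968: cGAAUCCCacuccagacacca
miR-3963: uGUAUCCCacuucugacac
miR-2137: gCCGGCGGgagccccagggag

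miR-3968 ends in CCA, the letters that cells add to the 3′ end of mature tRNAs. It was the 1 tested member of 43 with that ending (2.33%), against 5 of 343 other tested entries (1.46%). GENCODE M21 transcripts held the sequences of miR-3968, miR-3963 and miR-2137 in their own hairpin genes alone. Nothing outside these transcripts was searched, nuclear tRNA genes included. The tRNA- or rRNA-like class was set by name.

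The next set lies in snoRNA or scaRNA genes and shows why reads can be shared between entries.

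miR-1839-5p: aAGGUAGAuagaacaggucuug
miR-1843a-5p: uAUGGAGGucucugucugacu
miR-1843b-5p: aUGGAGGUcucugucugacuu
miR-1843a-3p: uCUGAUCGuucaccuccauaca
miR-1843b-3p: cCGAUCGUuccccuccauac
miR-3068-3p: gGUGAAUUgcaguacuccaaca
miR-3535: uGGAUAUGaugacugauuaccugaga

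The whole of miR-1843b-5p also occurs in the Mir1843a hairpin, so reads of that sequence cannot be assigned to 1 of the genes. The whole of miR-1843a-5p was found in the Mir1843a hairpin and not in that of Mir1843b. Both entries still hold the same values, and how this came about was not tested. The listed 5p sequences start 1 base apart, which gives them different seeds. The 3p arms differ in sequence and had different values.

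The third set ends at the 3′ end of an intron, at the splice acceptor, in GENCODE M21.

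miR-3103-3p: uAACCUCUgauccuucccacag
miR-3087-3p: uAACUCACugucauguccuca
miR-3077-3p: cUGACUCCcugcuucuccgcag
miR-3082-3p: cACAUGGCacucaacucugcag
miR-1982-3p: uCUCACCCuauguucucccacag

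The last set holds the hairpin arms in host genes that were lower at an unadjusted p under 0.05, the arm from Dgcr8, the arm from hairpins that overlap those of miR-24, and the most abundant members.

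miR-1943-5p: aAGGGAGGaucugggcaccugga
miR-1941-5p: aGGGAGAUgcugguacagaggcuu
miR-1941-3p: cAUCUUAGcaguaucucccau
miR-1306-5p: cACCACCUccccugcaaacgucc
miR-3074-5p: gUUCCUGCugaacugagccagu
miR-1249-3p: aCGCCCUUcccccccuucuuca
miR-1198-5p: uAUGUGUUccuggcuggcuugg
miR-1964-3p: cCGACUUCugggcuccggcuuu

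Seeds were compared among the 43 tested members and 343 other tested entries with a sequence. Among these, no tested member shared its whole seed with another tested member. The seed of miR-3473d (CACUGAG) was also that of miR-674-5p, and this was the 1 seed shared with another tested entry that had a sequence. The 43 tested members with a sequence had a median length of 22 bases (19 to 26) and a median GC content of 54.5%, against 22 bases and 52.2% in 343 other tested entries. In GRCm38, 8 of the 43 ended within 2 bases of a splice acceptor (18.6%), against 31 of the others (9.04%). Hairpins of 6 members overlapped a snoRNA or scaRNA gene (14.0%), against 7 of the others (2.04%). A protein-coding host gene contained 34 of them (79.1%), against 182 of the others (53.1%). These shares describe the catalogue and were not tested.

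Libraries held between 2934851 and 7614853 reads. Members took 0.141 ± 0.00612% of reads in controls (SD, n = 3; 0.136 to 0.147%) and 0.112 ± 0.00644% in DicerAQP2Cre+ libraries (0.107 to 0.119%), so the groups did not overlap. This share was not tested. It depends on the total of each library, to which miR-181a-5p added a mean of 2.997e+06 normalized reads. The log2 fold change of miR-181a-5p was 0.61 ± 0.18 (SE; limma adjusted p = 0.0641), and its part in the share was not tested. Values with libraries set to equal totals, given below, depend on the same totals. In the shallowest library, DicerAQP2Cre+ replicate 2, the share was 0.108% with a 95% exact binomial interval of 0.105 to 0.112%, which covers counting error only. In normalized reads the members summed to 6968 ± 624 in controls and 6400 ± 460 in DicerAQP2Cre+ libraries, and these sums overlapped. The 5 most abundant members held between 67.0 and 75.8% of member reads. Summed markers of collecting duct and other epithelium (5 of 5 listed miRNAs in the table) ran from 16704 to 17708 normalized reads in controls and from 7133 to 10776 in DicerAQP2Cre+ libraries. Stromal markers (5 of 5) ran from 23291 to 24538.5 and from 27621 to 39941, and leukocyte markers (4 of 4) from 12167 to 35214 and from 15922 to 38104. Endothelial markers (2 of 2) ran from 961 to 1229 and from 830 to 1245, erythroid markers (4 of 4) from 84625 to 147223 and from 66039 to 98718, and cortical tubule markers (3 of 3) from 1277 to 1340 and from 627 to 1131. Neuronal markers (2 of 2, mostly miR-9-5p) ran from 772 to 977 and from 320 to 412, and striated muscle markers (2 of 3, with miR-1a-3p not in the table) from 32.9 to 48.7 and from 26.6 to 47.0. miR-142a-3p (leukocytes), miR-124-3p (neurons), miR-206-3p (muscle) and miR-215-5p (tubule) were each at 0 in 5 of the 6 libraries, nearly all of the leukocyte sum was miR-150-5p, and nearly all of the erythroid sum was miR-486a-5p. The part of these differences in the results below was not tested.

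The comparison of genotypes asked which of these entries differ in the inner medulla when principal cells lack Dicer1. Of the 44 tested members 1 rose and 0 fell at a limma adjusted p under 0.05, where p was adjusted over all 461 tested entries. Over all 461 entries, 3.47% rose and 4.99% fell, so the members' 1 of 44 (2.27%) is near the background in the higher direction. Rows of the number range left out by name are not in the members' count. Among them limma called miR-1247-5p (log2 fold change 2.88, adjusted p = 0.0172) and miR-3102-5p.2-5p (1.35, 0.0265) higher. It called miR-3076-3p lower (-1.55, 0.0148) and did not call miR-3102-3p (0.43, 0.279). By edgeR 1 member rose and 0 fell, and by DESeq2 1 rose and 1 fell (miR-3968 and miR-1943-5p). Over all entries edgeR called 19 higher and 23 lower, and DESeq2 29 higher and 31 lower. At an unadjusted p under 0.05, limma had 8 members, 6 lower and 2 higher, which is 18.2% against 28.0% of all tested entries. Of these, miR-3103-3p, miR-3087-3p, miR-1941-3p and miR-1668 had a mean below 5 in 1 genotype. They reached the filter through the other genotype, and their p-values and any lack of overlap carry that limit. Values of the genotypes did not overlap for 7 members with lower values (15.9%, against 18.0% of all tested entries) and 5 with higher values (11.4%, against 15.6%). Log2 fold changes, on the log2(value + 1) scale, ran from -1.93 to 1.46 and were below 0 for 27 of 44 members (61.4%, against 50.5% of all). Their median was -0.09, against -0.01 over all tested entries. With libraries set to equal totals both medians moved down, to -0.30 and -0.21. Members were scarcer than tested entries in general, with a median of 24.0 against 79.8 normalized reads, and less precisely measured, with a median standard error of 0.42 against 0.32 on the log2 scale.

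**Figure D1:**
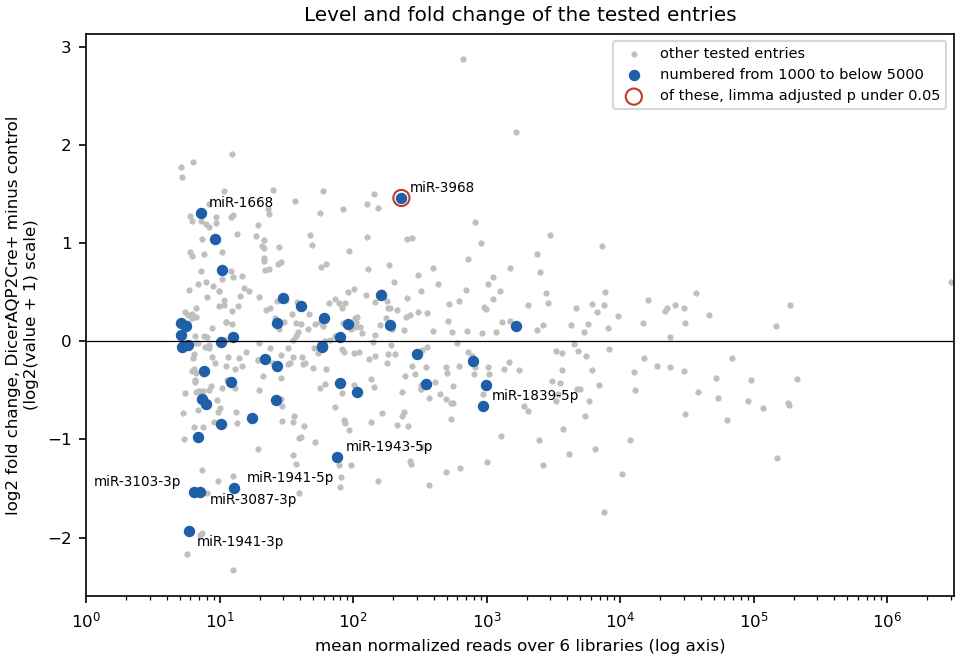
Log2 fold change (DicerAQP2Cre+ minus control, vertical) against the mean normalized reads over 6 libraries (horizontal, log axis) for the 461 tested entries, with members in blue and others in grey. Members lie mostly at low levels, 1 of them (ringed, miR-3968) passed the test, and names mark the 8 with an unadjusted p under 0.05.

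Among the tRNA- and rRNA-like entries, miR-3968 rose 2.83-fold. It had 109, 131 and 119 normalized reads in control replicates 1 to 3, and 369, 408 and 241 in DicerAQP2Cre+ replicates 1 to 3. All 3 DicerAQP2Cre+ libraries lay above all controls, with replicate 3 the lowest of them. The means were 120 ± 11.1 and 339 ± 87.2 (SD, n = 3), a log2 fold change of 1.46 ± 0.26 (SE; limma adjusted p = 0.0126), which ranked 7 by p among all tested entries. Leaving out control replicate 2 or control replicate 3 ended the call, with limma adjusted p = 0.0792 and 0.0635. The log2 fold change was then 1.53 or 1.46. Over all alternatives it ran from 1.25 to 1.69, with adjusted p from 9.09e-06 (DESeq2) to 0.0792.

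miR-2137, in an intron of Zfp185 and with the highest GC content of the tested members (85.7%), differed among the DicerAQP2Cre+ libraries. It had 47.7, 74.7 and 39.7 normalized reads in controls and 80.6, 94.1 and 16.3 in DicerAQP2Cre+ replicates 1 to 3. DicerAQP2Cre+ replicate 3 was the lowest of all 6 libraries and the other 2 were the highest, so -0.05 ± 0.57 on the log2 scale (limma adjusted p = 0.961) carries no direction. The change was 0.73 without that replicate (adjusted p = 0.102). miR-3963 stood at 4.61, 6.29 and 3.87 in controls and 4.44, 9.80 and 2.04 in DicerAQP2Cre+ libraries. These are 2 to 8 reads per library, where no difference was detectable. miR-1983, another entry of this kind, had means of 0.841 and 1.64 normalized reads in controls and DicerAQP2Cre+ libraries and was not tested. In the list of tRNA-, rRNA- or snoRNA-like entries fixed for this work, which also holds miR-1839-5p and miR-1839-3p, 6 were in the table and 4 were tested. Of these 1 rose and 0 fell, with a median log2 fold change of -0.05 against -0.01 over all tested entries.

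Of the 6 tested members in snoRNA or scaRNA genes, 0 passed the limma test, against 4.99% of all entries called lower and 3.47% higher, and 1 had an unadjusted p under 0.05, against 28.0% of all. edgeR and DESeq2 called 0. Of the 6, 3 had log2 fold changes below 0 and 3 above 0 (median -0.13, against -0.01 over all tested entries). miR-1839-5p, in a scaRNA gene, was the lowest of them. It had 1300, 1215 and 920 normalized reads in controls and 513, 833 and 860 in DicerAQP2Cre+ replicates 1 to 3. The groups did not overlap, although the lowest control and the highest DicerAQP2Cre+ library lay close together. The log2 fold change was -0.66 ± 0.26 (limma adjusted p = 0.130), and it was called with libraries set to equal totals (adjusted p = 0.0420). Its other arm, miR-1839-3p, was almost absent, with 0 reads in DicerAQP2Cre+ replicates 2 and 3 and at most 7 reads in any library.

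The miR-1843 hairpins lie in the scaRNA genes Scarna3a (miR-1843b, within an intron of Cop1, a ubiquitin ligase gene) and Scarna3b (miR-1843a, within Dcaf5). The shared 5p values were 448, 399 and 363 in controls and 303, 286 and 303 in DicerAQP2Cre+ libraries. All 3 DicerAQP2Cre+ libraries lay below all controls, and the log2 fold change was -0.43 ± 0.21 (limma adjusted p = 0.211). miR-1843b-3p stood at 1336, 1034 and 1021 in controls and at 658, 719 and 1189 in DicerAQP2Cre+ replicates 1 to 3, where replicate 3 lay among the controls (log2 fold change -0.44 ± 0.26, adjusted p = 0.304). miR-1843a-3p stood at 200, 198 and 132 in controls and at 191, 267 and 146 in DicerAQP2Cre+ libraries, with overlapping groups and a log2 fold change of 0.17 ± 0.29 (adjusted p = 0.747). A difference between these 3p arms in their response was not tested. miR-3068-3p (24.4 ± 3.66 and 28.8 ± 9.44, SD, n = 3) and miR-3535, which lies in a snoRNA gene inside the nucleolin gene Ncl (30.6 ± 6.64 and 50.7 ± 34.1), both overlapped between genotypes. For entries in these genes, a fragment of the snoRNA or scaRNA and a miRNA made from it cannot be told apart by these counts.

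The mirtron-like members, whose 3p arm ends at a splice acceptor, came to 9 tested entries with the other arm of miR-1231. Where their 5p arm had a sequence, it did not start within 2 bases of a splice donor, so the class rests on the 3′ end alone. Of the 9, 0 passed the limma test, 2 had an unadjusted p under 0.05, and edgeR and DESeq2 called 0. DESeq2 could not call miR-3103-3p, miR-3087-3p, miR-3077-3p or miR-1231-5p, as it gave them no adjusted p. With 4.99% of all entries called lower, 3.47% higher and 28.0% at the unadjusted p, so few entries cannot be set apart from the background. DESeq2 gave no adjusted p for 14 of the 44 tested members, none of them with a mean above 9.20. Log2 fold changes of the 9 mirtron-like entries ran from -1.54 to 0.72, 4 below 0 and 5 above, with a median of 0.05 against -0.01 over all tested entries. Lowest were miR-3103-3p, from an intron of 89 bases of BC017158, and miR-3087-3p, from an intron of 82 bases of the lipid transporter gene Abca2. miR-3103-3p had 8.46, 7.07 and 14.5 normalized reads in controls and 2.22, 1.96 and 4.09 in DicerAQP2Cre+ replicates 1 to 3. The groups did not overlap, but the DicerAQP2Cre+ values are 3, 1 and 4 reads. Its log2 fold change of -1.54 ± 0.50 did not pass (limma adjusted p = 0.0888), and it was called with equal totals (0.0474). miR-3087-3p had 13.1, 12.6 and 6.77 in controls and 5.18, 3.92 and 1.02 in DicerAQP2Cre+ libraries, again without overlap (-1.53 ± 0.55, adjusted p = 0.111). Their 5p arms were below the filter, at means of 1.62 and 2.66 (miR-3103-5p) and 5.35 and 2.01 (miR-3087-5p) in controls and DicerAQP2Cre+ libraries.

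Others of this kind lay on either side of 0. miR-3082-3p, at a splice acceptor of Stub1 (a ubiquitin ligase gene), had 25.4, 23.6 and 26.1 normalized reads in controls and 26.6, 35.3 and 42.9 in DicerAQP2Cre+ libraries, all above the controls (26.6 against 26.1 at the closest; log2 fold change 0.44 ± 0.30, limma adjusted p = 0.365). miR-3077-3p, from Sap18, a gene of the Sin3 repressor complex, stood at 9.998, 9.43 and 7.74 in controls and 7.40, 5.88 and 4.09 in DicerAQP2Cre+ libraries, without overlap (-0.59 ± 0.43, adjusted p = 0.386). miR-1982-3p, from a 74-base intron of Oaz1, the antizyme that restrains polyamine synthesis, stood at 7.12 ± 1.14 and 13.5 ± 7.35 (SD, n = 3). miR-3572-3p, from an intron of Cnot3, a subunit of the deadenylase that shortens mRNA tails, varied least, at 12.4 ± 0.743 and 12.9 ± 1.30. miR-3547-3p and both arms of miR-1231 overlapped between genotypes. The introns that these tested arms end in are between 74 and 178 bases long.

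**Figure D2:**
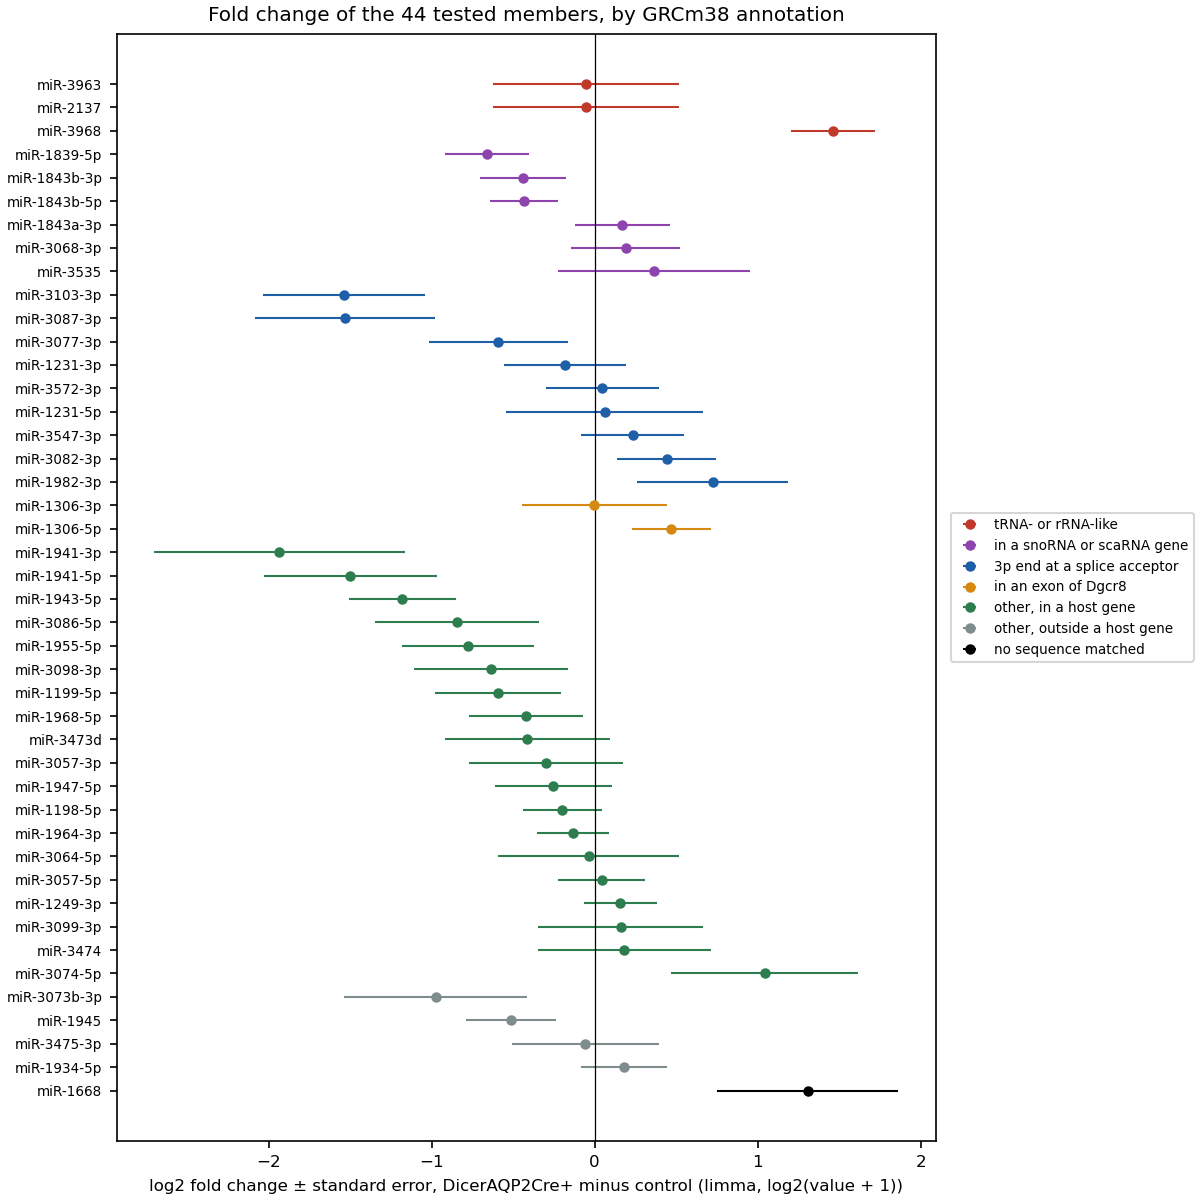
Log2 fold change (DicerAQP2Cre+ minus control, horizontal) with its standard error for each of the 44 tested members, coloured by class. Classes follow where the hairpin lies in GRCm38, except that the tRNA- or rRNA-like entries were set by name. The snoRNA or scaRNA entries and the mirtron-like entries lie on both sides of 0, and miR-3968 stands at 1.46 away from miR-3963 and miR-2137.

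miR-1306 lies in an exon of Dgcr8, whose mRNA holds a hairpin that Drosha cuts to limit Dgcr8 protein. miR-1306-5p had 159, 107 and 141 normalized reads in controls and 178, 178 and 202 in DicerAQP2Cre+ libraries. All 3 DicerAQP2Cre+ libraries lay above all controls, a log2 fold change of 0.47 ± 0.24 that did not pass (limma adjusted p = 0.235). Its other arm, miR-1306-3p, stood at 6.92, 11.8 and 11.6 in controls and 11.1, 5.88 and 14.3 in DicerAQP2Cre+ libraries, with overlapping groups and a log2 fold change of -0.0018 ± 0.45 (adjusted p = 0.999).

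miR-3074-5p comes from hairpins overlapping those of miR-24, with a copy in each miR-23, miR-27 and miR-24 cluster. It had 7.69, 1.57 and 9.68 normalized reads in controls and 16.3, 9.80 and 10.2 in DicerAQP2Cre+ libraries. The lowest DicerAQP2Cre+ library lay just above the highest control, and the change of 1.04 ± 0.57 on the log2 scale did not pass (limma adjusted p = 0.262). The arm named miR-3074-1-3p had at most 2 reads in a library.

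The other hairpins inside host genes gave 19 tested entries, with miR-3074-5p counted among them. Log2 fold changes were below 0 for 14 and above 0 for 5, where 50.5% of all tested entries lay below 0. Their median was -0.30, against -0.01 over all. Of these 0 passed the limma test, 3 had an unadjusted p under 0.05 (28.0% of all entries did), edgeR called 0 and DESeq2 1. miR-1943-5p came closest to the threshold. Its hairpin lies in an intron of Tmem184b, a membrane protein gene. It had 78.4, 101 and 138 normalized reads in controls and 42.2, 33.3 and 64.4 in DicerAQP2Cre+ replicates 1 to 3. All 3 DicerAQP2Cre+ libraries lay below all controls, 2.27-fold lower on the means, and the limma estimate was -1.18 ± 0.33 on the log2 scale (adjusted p = 0.0502). The entry was called by DESeq2 (adjusted p = 0.0157) and not by edgeR (0.0538), and in limma with a mean filter of 20 (0.0488), a pseudocount of 5 (0.0494), no filter (0.0312) or equal totals (0.0227). Over its alternatives in limma the adjusted p ran up to 0.189, without control replicate 3. Its 3p arm was below the filter, with 2.31, 2.36 and 0 normalized reads in controls and 2.22, 9.80 and 8.17 in DicerAQP2Cre+ libraries. The means of the 3p arm, 1.56 and 6.73, thus differed in the other direction from those of the 5p arm, on at most 8 reads a library and with no test.

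miR-1941 gave both arms. Its hairpin lies in Gm35853, a noncoding RNA opposite the keratin gene Krt80. miR-1941-5p had 19.996, 19.7 and 15.5 normalized reads in controls and 2.22, 5.88 and 13.3 in DicerAQP2Cre+ replicates 1 to 3. miR-1941-3p had 9.998, 9.43 and 6.77 in controls and 0.740, 0 and 8.17 in DicerAQP2Cre+ replicates 1 to 3; the 0 reads in replicate 2 allow up to 5.88. In both arms DicerAQP2Cre+ replicate 3 lay near the controls, and for the 3p arm it overlapped them. Log2 fold changes were -1.50 ± 0.53 and -1.93 ± 0.77 (limma adjusted p = 0.106 and 0.134).

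DicerAQP2Cre+ replicate 3 held the highest value of its group in 14 of the 27 members whose log2 fold change was below 0 (51.9%), against 101 of the 233 tested entries below 0 (43.3%). Without it limma called 7 members lower (15.9%) against 62 of all 461 entries (13.4%), and that replicate was the highest of its group in all 7, which leaving it out to gain the calls largely fixes. These were miR-1943-5p (adjusted p = 0.00409), miR-1941-3p (0.00570), miR-1941-5p (0.00794), miR-1843b-3p (0.0194), miR-1839-5p (0.0273), miR-3103-3p and miR-1968-5p (both 0.0370). miR-1968-5p, from an intron of Grtp1, had 79.2, 93.5 and 92.9 normalized reads in controls and 47.3, 51.0 and 116 in DicerAQP2Cre+ replicates 1 to 3. Replicate 3 was thus the highest of all 6 libraries and the other DicerAQP2Cre+ libraries the lowest. The same replicate had the highest summed epithelial markers of its group (10776), mostly through miR-200b-3p (6108, against 3399 and 3200). Its miR-200c-3p and miR-429-3p were also the highest, miR-200a-3p lay between the others, and miR-141-3p was the lowest (199, against 425 and 253). Its summed endothelial (1245), leukocyte (38104), erythroid (98718) and cortical tubule markers (1131) were the highest of the group as well. Those of neurons and striated muscle were not. Its summed stromal markers (27621) were the lowest of the group, and the part of these in the 7 calls was not tested. With all libraries the log2 fold change of miR-1968-5p was -0.42 ± 0.35 (limma adjusted p = 0.459).

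**Figure D3:**
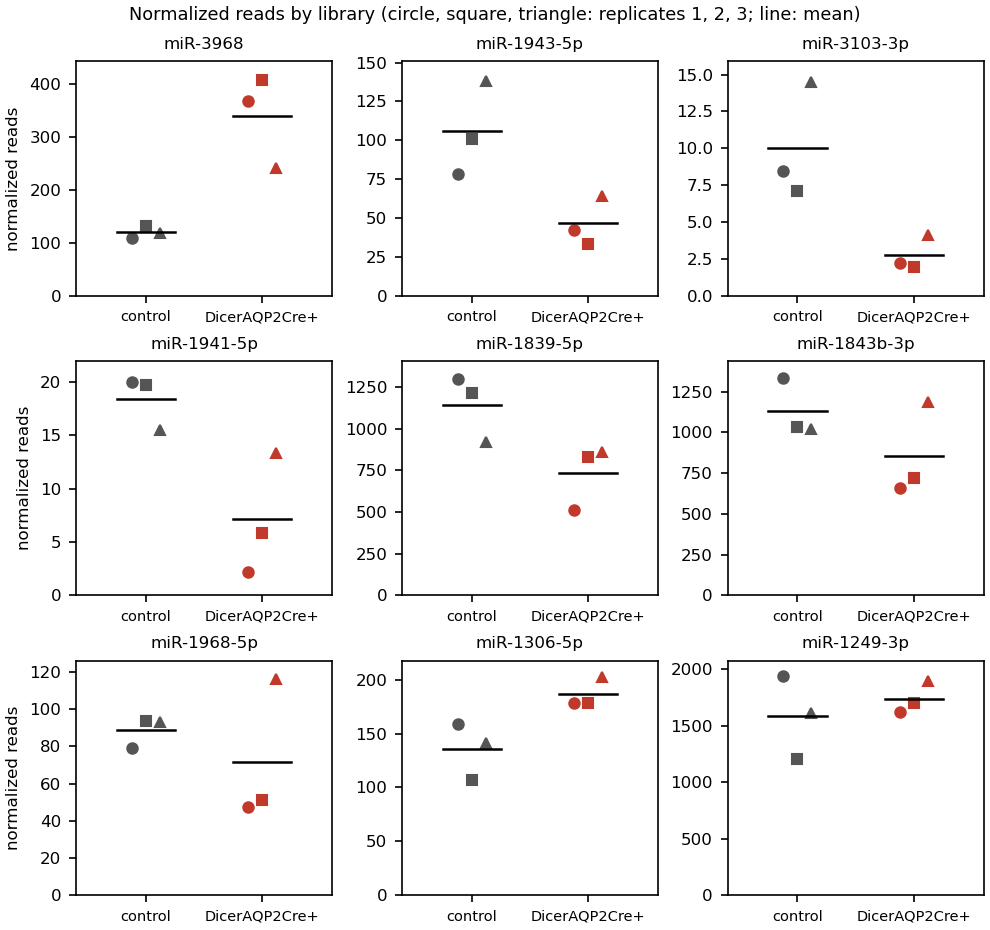
Normalized reads of 9 members in each library (points, with circle, square and triangle for replicates 1, 2 and 3) and the group mean (line), on axes that start at 0. The groups are separate in miR-3968, miR-1943-5p, miR-3103-3p, miR-1941-5p, miR-1839-5p and miR-1306-5p. The triangle of DicerAQP2Cre+ replicate 3 is the highest of its group in every panel except that of miR-3968.

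Of the abundant members, miR-3968 alone passed the test. The 10 with a mean of at least 100 normalized reads had a median absolute log2 fold change of 0.44 and a median standard error of 0.25. miR-1249-3p, the most abundant of them and at rank 81 in the whole table, had 1939, 1202 and 1615 normalized reads in controls and 1619, 1703 and 1897 in DicerAQP2Cre+ libraries. The DicerAQP2Cre+ values lay within the range of the controls (log2 fold change 0.16 ± 0.22, limma adjusted p = 0.701). miR-1198-5p, from an intron of Gripap1, stood at 837 ± 36.8 and 749 ± 226 (SD, n = 3). Its DicerAQP2Cre+ replicate 1, at 1010.5, was above all controls, and the other DicerAQP2Cre+ libraries were below them. miR-1964-3p, from an intron of the zinc finger gene Zfp84, stood at 314 ± 19.2 and 288 ± 41.6. miR-1945, outside any annotated host gene, had 103, 147 and 125 in controls and 87.3, 66.6 and 110 in DicerAQP2Cre+ libraries (log2 fold change -0.51 ± 0.28, adjusted p = 0.251), overlapping in 1 library.

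miR-1668, for which no sequence was matched, had a p of 0.0394 before adjustment. It had 1.54, 4.72 and 4.84 normalized reads in controls and 5.18, 11.8 and 15.3 in DicerAQP2Cre+ libraries, which are 2 to 15 reads each. The groups did not overlap, and the log2 fold change of 1.31 ± 0.56 did not pass (limma adjusted p = 0.155). The repeat-derived list had 3 members in the table and 2 tested. miR-3473d stood at 13.1 ± 1.85 and 11.4 ± 8.91 normalized reads (SD, n = 3) and miR-3474 at 4.86 ± 2.30 and 5.45 ± 2.07, and miR-3473g was below the filter. The list of entries named alike in human had 6 in the table and 4 tested, of which 0 were called by limma, edgeR or DESeq2 and 0 had an unadjusted p under 0.05 in limma, with a median log2 fold change of 0.31 against -0.01 over all tested entries.

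Both arms were in the table for 37 hairpins with a member and tested for 6 of them, with 1 arm tested for 20. The 6 were those of miR-1231, miR-1306, miR-1843a, miR-1843b, miR-1941 and miR-3057. In 2 of the 6 the arms had log2 fold changes of the same sign. The miR-1843a and miR-1843b hairpins share 1 set of 5p values, so their signs and arm ratios do not measure single hairpins. The arms differed 2.83-fold in miR-1843b, 15.7-fold in miR-1306 and 49.0-fold in the scarcer miR-3068. The 3 highest ratios lay in other hairpins. miR-1249-3p exceeded its 5p arm 5842-fold by mean normalized reads, miR-1198-5p exceeded its 3p arm 1241-fold, and miR-1964-3p its 5p arm 1039-fold. In each of these the minor arm rested on 3 reads or fewer per library, so the ratios are rough. In the miR-1231 hairpin the 3p arm, at the splice acceptor, was 4.25-fold above the 5p arm.

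**Figure D4:**
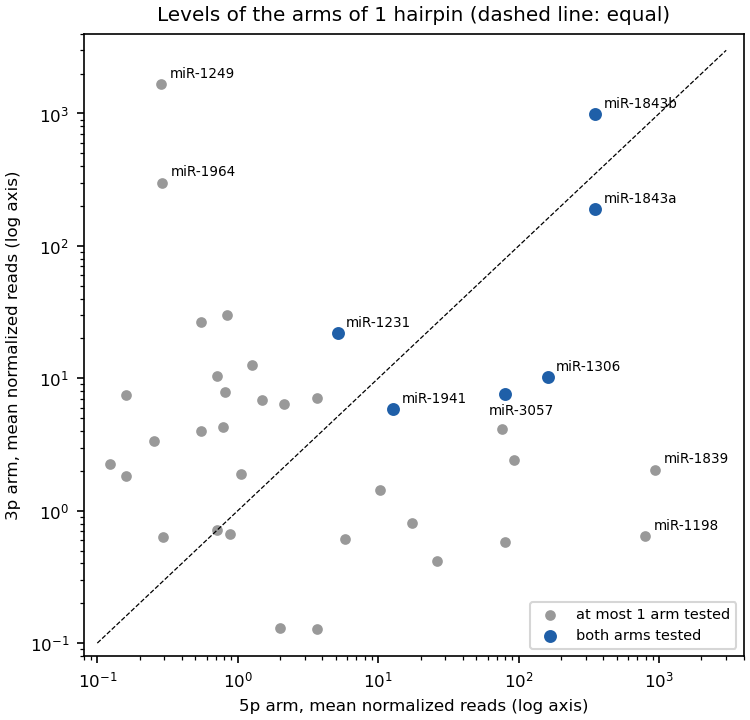
Mean normalized reads of the 5p arm (horizontal) and 3p arm (vertical), both log axes, for the 37 hairpins with both arms in the table. Hairpins with both arms tested (blue) lie nearer to the dashed line of equal levels than miR-1249, miR-1964, miR-1839 and miR-1198. The 5p value of miR-1843a and miR-1843b is shared.

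The 72 members below the filter were scarce, and 10 of them had a read in all 6 libraries. Of all 116 members 53 had a read in every library, 47 had 10 reads or fewer over all 6 libraries, and 6 had 1 read in all. In the shallowest library, DicerAQP2Cre+ replicate 2, 47 of the 72 had 0 reads, against 17 to 38 in the others, where 0 reads allow up to 2.22 to 5.88 normalized reads depending on the library. miR-1188-5p, of the Dlk1-Dio3 imprinted region, had 3 reads in DicerAQP2Cre+ replicate 1 and 0 elsewhere. miR-3960, of an osteoblast cluster, had 2 reads in control replicate 1 and 1 in DicerAQP2Cre+ replicate 1. miR-1291, in the snoRNA gene Snora34, had at most 3 reads in a library. Members below the filter were not tested in the main fit, so no statement on a genotype difference is made for them. An entry passes the filter on its mean over all libraries, so a member high in 1 genotype alone could pass through that genotype.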

How the data were processed

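Small RNA of inner medulla was sequenced from 3 control and 3 DicerAQP2Cre+ mice with a TruSeq small RNA kit, per the labels' protocols. FastQC 0.11.3, DESeq2 and mm9 as the genome build are listed in the submitters' processing notes, and the aligner is not given in the sources used here. The deposited signal per mature miRNA is a read count divided by a size factor of the library, and is called normalized reads above. Whole reads were recovered from the deposited values for 100% of values within 0.01 read (largest deviation 9.61e-05), and these gave the depths. Table columns were matched to samples by name, which for DicerAQP2Cre+ rests on reading their prefix as conditional knockout.

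Entries with a mean of at least 5 were tested with limma 3.58.1 in R 4.3.3 on log2(value + 1), with a trended prior and no covariate, and p-values were adjusted by Benjamini-Hochberg over all 461 entries. A fold change on that scale understates that of scarce entries. Residual degrees of freedom were 4 and prior degrees 6.44. edgeR 4.0.16 (quasi-likelihood) and DESeq2 1.42.0 were run on the recovered reads as alternatives, beside other pseudocounts, filters, scaling and left-out libraries. The fit was tested on simulated data. Nothing tells technical spread from that between separate mice beyond the labels' 3 mice a genotype. Same-numbered libraries were checked for pairing and not paired (correlations of deviations -0.059, 0.0054 and 0.055).

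Sequences and host genes came from RefSeq and GENCODE M21 on GRCm38, not on the build of the files, so no coordinates are given. The members and lists were chosen with earlier results of these data known. Named members were those called, those with an unadjusted p under 0.05, the 10 most abundant, members of the lists, and the other arm of each. Classes by host annotation, miR-1968-5p and the other members of those classes were chosen after their values were seen.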

Additional observations from a re-analysis of the deposited data

How the results depend on the processing

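The 23 entries called lower among all tested became 48 with equal totals, 11 without the trend, 41 at an adjusted p under 0.1, and 0 to 62 leaving out 1 library (0 without control replicate 2 or 3, 62 without DicerAQP2Cre+ replicate 3). The 16 called higher became 7 without the trend, 29 by DESeq2, 30 at an adjusted p under 0.1, and 0 to 43 leaving out 1 library. The 0 members called lower became 1 with a pseudocount of 5, with no filter, with a filter of 20 and by DESeq2, 3 with equal totals (miR-1839-5p, miR-1943-5p and miR-3103-3p), 2 at an adjusted p under 0.1, and 0 to 7 leaving out 1 library. The 1 member called higher stayed between 0 and 1 leaving out 1 library, with 0 without control replicate 2 or 3. The 12 members with no overlap became 6 with a filter of 20, which leaves fewer members tested, and up to 24 leaving out 1 library (20 without control replicate 1, 24 without DicerAQP2Cre+ replicate 3). Fewer samples per group make no overlap easier. Causes of the other shifts were not tested.

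A replicate block, although the numbers do not pair the libraries, left 1 member called higher, with an adjusted p of 0.0285 for miR-3968 in limma.

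Of 342 alternative values of 22 named members, 306 kept direction and side of the threshold, 2 lost the call, 13 gained one, and 21 changed sign, in 6 members whose log2 fold change was at most 0.18 in size. With equal totals, miR-1249-3p was -0.054 and miR-1843a-3p -0.041. With a pseudocount of 5, miR-1306-3p was 0.0078 and miR-3963 0.010. By edgeR miR-1306-3p was 0.17 and miR-2137 0.29, and by DESeq2 miR-1306-3p was 0.13, miR-2137 0.27 and miR-3963 0.044. Leaving out 1 library gave ranges of -0.028 to 0.32 for miR-1249-3p, -0.25 to 0.33 for miR-1306-3p, -0.054 to 0.38 for miR-1843a-3p, -0.50 to 0.73 for miR-2137, -0.19 to 0.43 for miR-3474 and -0.52 to 0.39 for miR-3963. Depth limits the scarce members, whose median standard error was 0.51 under a mean of 20, against 0.25 at 100 or more.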
